A study of Mus musculus with 20 samples.

Results

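Retnlb encodes resistin-like molecule beta (RELMβ), a small cysteine-rich protein that goblet cells of the large intestine release into the mucus. It was found in the count table of the proximal colon (PC) by its Ensembl identifier, ENSMUSG00000022650, matched to its symbol, and is 1 gene of the 12701 listed. RELMβ belongs to the resistin family, whose other mouse members are resistin (Retn), made mainly by adipocytes, RELMα (Retnla), a marker of alternatively activated macrophages, and RELMγ (Retnlg). Its transcription in the colon is known to respond to the type 2 cytokines IL-4 and IL-13 and to the arrival of gut bacteria. The protein has reported activity against parasitic worms and Gram-negative bacteria.

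The 20 PC libraries came from C57BL/6 mice that began, at 3 weeks of age, a feed built to mirror typical American intake, the Total Western Diet (TWD). After 6 weeks they stayed on the TWD (0% RPS) or had starch added to it at 2, 5, or 10% for 3 more weeks, as resistant potato starch (RPS), which the sample labels call raw potato starch, so that all diets shared the TWD background. There were 5 separately numbered libraries per diet, with total counts of 20581013 to 35083751. Each library held whole gut tissue of 1 segment, and in such bulk samples fewer cells of a type and less RNA per cell cannot be told apart. All 20 goblet cell genes and all 12 colonocyte genes of the marker lists were in the table, among them Muc2, the main gel-forming mucin, and Car1, a carbonic anhydrase of surface colonocytes. One library, 0% RPS replicate 2, stood apart from the other 4 of its diet: 149 of 12348 genes differed at least 4-fold from the median of those 4, against 20 to 54 genes in each of the other 19 libraries measured in the same way. Retnlb is among the genes on which that library departs most, and its comparisons between diets are therefore given with and without it. Some results for other genes are given for all 20 libraries only.

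Retnlb lies on the plus strand of chr16:48637219-48639255 (GRCm39) and has 1 annotated transcript of 696 bases in 4 exons, with a coding part of 318 bases that begins in exon 2 and ends in exon 4. No other annotated gene overlaps it. Retnla (chr16:48662895-48664824) and Retnlg (chr16:48692547-48694862) follow it on the same strand, while Retn lies on another chromosome. Since near-identical genes can exchange short reads, the family was compared on the 50-base length of the reads. None of the 647 windows of 50 bases in the Retnlb transcript (0 of 647) occurred in the transcript of another gene, and the closest window differed at 2 bases from Retnlg, at 7 from Retnla, and at 13 from Retn. The coding stretches that hold the longest identical run are printed here, 5′ to 3′, with the identical run in capitals and positions counted from the first coding base. They show how far family members could be mistaken for each other.

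Retnlb, coding bases 196 to 245: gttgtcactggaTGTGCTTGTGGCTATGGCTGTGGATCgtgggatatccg
Retnlg, coding bases 236 to 285: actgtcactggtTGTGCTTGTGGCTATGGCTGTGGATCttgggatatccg
Retnlb, coding bases 269 to 318: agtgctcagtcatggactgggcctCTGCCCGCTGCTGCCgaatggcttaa
Retnla, coding bases 368 to 417: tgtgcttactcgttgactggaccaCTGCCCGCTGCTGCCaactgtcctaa

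The identical run was 26 bases long with Retnlg, 15 with Retnla, and 11 with Retn, all shorter than 1 read. A read of 50 bases with no errors could thus be placed on Retnlb alone, although how the counting treated reads with mismatches is not stated in the sources used here. Retnlg was not among the genes of the table.

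On the TWD without starch, Retnlb was low in 4 libraries and high in 1. Levels are given as normalised counts, the deposited counts divided by a size factor per library. The 5 libraries at 0% RPS had 156, 6180, 224, 147, and 110 normalised counts, in the order of their replicate numbers. Replicate 2 was thus far above its diet, with a gap to the next library that filled 98.1% of the range of the group. With 2% RPS the levels were 1062, 325, 157, 246, and 988 normalised counts. Both high libraries of this diet were above each of the 4 low libraries at 0% RPS, and the lowest fell among them. With 5% RPS the levels were 681, 750, 783, 227, and 181 normalised counts, so that 3 libraries were close together and 2 were much lower. With 10% RPS they were 490, 225, 405, 506, and 347 normalised counts, all above the 4 low libraries at 0% RPS. The raw counts behind these levels ran from 106 to 5935, so counting error was small beside the spread between libraries.

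**Figure D1:**
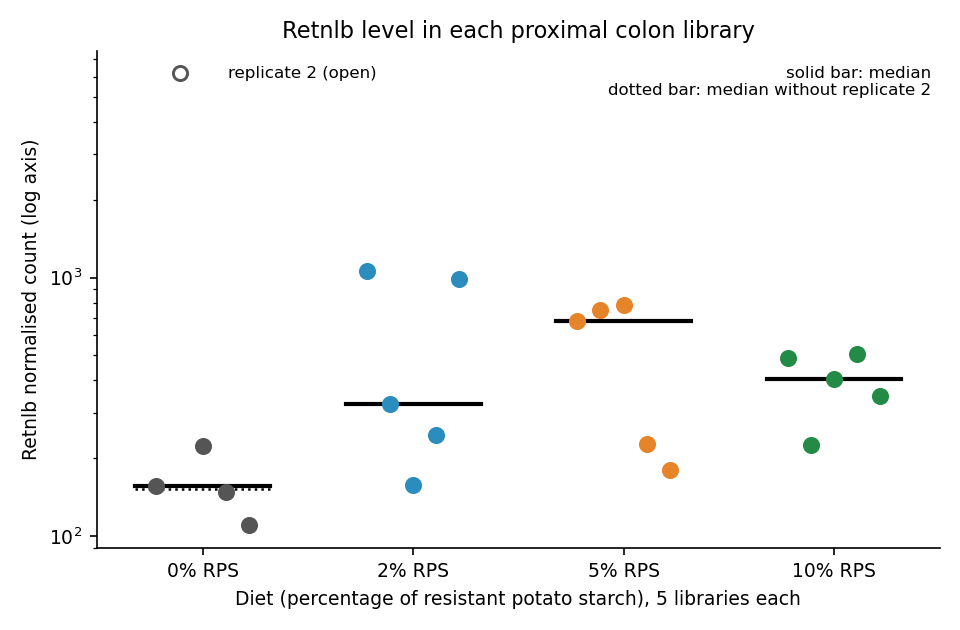
Retnlb normalised count (log axis) in each of the 20 PC libraries by diet, 1 point per library, with the median of each diet as a solid bar and the 0% RPS median without replicate 2 as a dotted bar. Replicate 2 at 0% RPS (open point, 6180 normalised counts) sits above all others, while 4, 4, and 5 of the 5 libraries at 2, 5, and 10% RPS lie above 224, the highest of the other 4 at 0% RPS.

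The order of the diets depended on how each was summarised. By medians, Retnlb was lowest at 0% RPS (156 normalised counts), followed by 2% RPS (325), 10% RPS (405), and 5% RPS (681). The medians with starch were thus 2.09, 2.60, and 4.37 times that of the TWD alone for 2, 10, and 5% RPS. Neighbours in this order did not differ beyond their spread in exact two-sided rank-sum permutation tests, with p = 0.222 for 2% against 0% RPS, p = 1.0 for 10% against 2% RPS, and p = 0.548 for 10% against 5% RPS (n = 5 each). By means the order was the opposite at the low end, with 1363 ± 2693 normalised counts (SD, n = 5) at 0% RPS, 556 ± 433 at 2% RPS, 524 ± 296 at 5% RPS, and 395 ± 115 at 10% RPS. Without replicate 2 the TWD alone had 159 ± 47.4 (SD, n = 4), with a median of 152, and was lowest by mean and median alike. The mean folds over it were then 3.49, 3.29, and 2.48 for 2, 5, and 10% RPS.

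Retnlb varied widely between libraries of the same diet. The highest library was 56.2 times the lowest at 0% RPS, 6.75 times at 2% RPS, 4.34 times at 5% RPS, and 2.24 times at 10% RPS. The SD within diets was 1.46 on the log2 scale, a value reached by 13 of 11541 genes (0.113%) whose mean reached 100 normalised counts, Retnlb included, against a median of 0.15. When 0% RPS replicate 2 was left out the SD was 0.88 and was reached by 40 genes (0.347%). The fit gave Retnlb a dispersion of 1.01, where the trend over genes of like level was 0.0165.

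In the fit of all 20 libraries Retnlb did not pass the test for any starch level against the TWD. The fitted log2 fold changes were negative, −1.29 (SE 0.92) for 2% RPS, −1.38 (SE 0.92) for 5% RPS, and −1.79 (SE 0.92) for 10% RPS. Their adjusted p-values were 0.691, 0.450, and 0.265 (DESeq2, adjusted over all genes), and the 95% intervals ran from −3.09 to 0.51, from −3.18 to 0.42, and from −3.59 to 0.01. These comparisons share the 0% RPS libraries and so share replicate 2. For the mean of the 3 starch diets against the TWD the estimate was −1.49 with a 95% interval of −2.96 to −0.02 (SE 0.75), and its adjusted p was 0.244 by DESeq2. The share of all genes called in the same fit, with an adjusted p of at most 0.05 and a fold of at least 1.5, was 0.0239% for 2% RPS, 0.438% for 5% RPS, 0.9% for 10% RPS, and 0.565% for any starch.

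Without 0% RPS replicate 2 each of these signs turned. That library was the highest for Retnlb and was singled out with its level known. Dropping it raises the folds over 0% RPS and narrows the spread. The p-values without it therefore describe the other 19 libraries and are no independent test of starch. The log2 fold change was 1.81 (SE 0.55, 95% interval 0.72 to 2.89) for 2% RPS, 1.72 (SE 0.55, 0.63 to 2.80) for 5% RPS, and 1.31 (SE 0.55, 0.22 to 2.40) for 10% RPS. The adjusted p-values from DESeq2 were 0.287, 0.0476, and 0.125, so that Retnlb passed at 5% RPS. Of all genes, 0.0398%, 0.827%, and 1.6% were called in these comparisons. For any starch the estimate was 1.61 on the log2 scale with an SE of 0.47 and passed as well (adjusted p = 0.0172 by DESeq2, 0.891% of all genes called). edgeR on the same 19 libraries gave like folds of 1.80, 1.72, 1.30, and 1.60 but no call, with adjusted p-values of 0.505, 0.113, 0.172, and 0.0785. With 1 more library left out in turn, Retnlb was higher with starch in every one of the fits, but the calls depended on the library. The call at 5% RPS held in 3 of the 9 fits that lacked a library of either diet, those without 0% RPS replicate 3 or 5% RPS replicate 4 or 5, and elsewhere the adjusted p ran from 0.0566 to 0.221 by DESeq2. The call for any starch held in 17 of 19 fits. It was lost without 0% RPS replicate 4 (adjusted p = 0.108), and without replicate 5 DESeq2 gave no adjusted p.

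Tests on ranks and log values, which weigh 1 extreme library less, lay between these. Over all 20 libraries the mean of log2 levels was higher with starch by 0.38, 0.44, and 0.23 for 2, 5, and 10% RPS, opposite in sign to the fitted changes, with exact permutation p-values of 0.762, 0.802, and 0.937 (two-sided, 252 assignments, smallest possible p = 0.00794). The same differences without replicate 2 were 1.44, 1.51, and 1.29, with exact p = 0.0635, 0.0476, and 0.0159 and, adjusted over the 6 pairs of diets, 0.127, 0.127, and 0.0952. The last of the raw values is the smallest that 5 against 4 libraries allow, since no library at 10% RPS overlapped the remaining 4 at 0% RPS. None of these pairs passed 0.05 after adjustment. Exact rank-sum tests without replicate 2 gave p = 0.0317, 0.0317, and 0.0159 for 2, 5, and 10% RPS, each 0.0635 after adjustment. With all 20 libraries the rank-sum values were 0.222, 0.222, and 0.151, each 0.444 after adjustment. Here too replicate 2 was left out with its Retnlb level known.

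**Figure D2:**
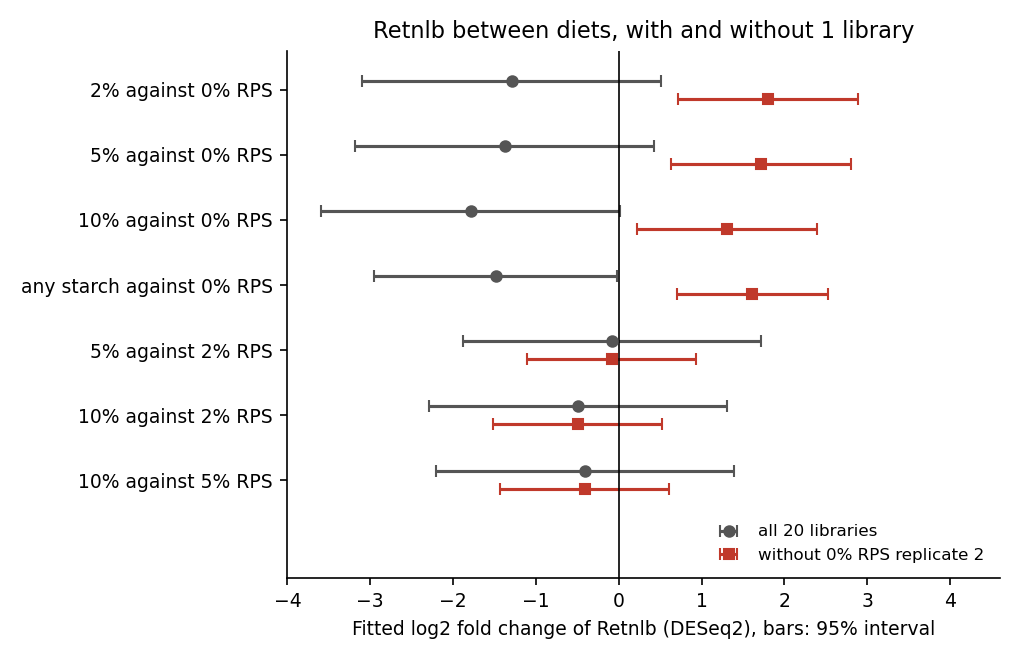
Fitted log2 fold change of Retnlb between diets (horizontal axis) with 95% intervals, from all 20 libraries (circles) and without 0% RPS replicate 2 (squares). The 4 comparisons with the TWD alone change sign, from between −1.79 and −1.29 to between 1.31 and 1.81, while the 3 comparisons between starch diets keep their values and their intervals span 0.

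Between the starch levels no difference in Retnlb passed the test. The log2 fold change was −0.08 (95% interval −1.89 to 1.72) for 5% against 2% RPS, −0.49 (−2.30 to 1.31) for 10% against 2% RPS, and −0.41 (−2.21 to 1.39) for 10% against 5% RPS, with adjusted p-values of 1.0, 0.927, and 1.0 by DESeq2. The share of all genes called was 0.0%, 0.0557%, and 0.00796% in these 3 comparisons. Without replicate 2 the estimates were −0.09, −0.50, and −0.41, with narrower intervals of −1.11 to 0.93, −1.52 to 0.52, and −1.43 to 0.61. A straight line over the percentage of RPS had a slope of −0.16 (SE 0.08, adjusted p = 0.300 by DESeq2) on the log2 scale per percent with all libraries and of 0.042 (SE 0.06, adjusted p = 0.740) without replicate 2. In the same trend fits 4.29% and 6.43% of all genes passed.

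The resistin relatives of Retnlb did not follow its levels across libraries. Retnla had between 96.2 and 222 normalised counts in all libraries, and its log2 fold change was −0.09, −0.09, and 0.13 for 2, 5, and 10% RPS (SE 0.19 each, adjusted p from 0.734 to 0.924 by DESeq2). Retn ranged from 3.98 to 626 normalised counts and was highest in 10% RPS replicate 1, the library that was also highest for the adipocyte hormone Adipoq (2003 normalised counts). Like Retnlb, Retn was high in 0% RPS replicate 2, with 262 normalised counts and a log2 excess of 2.05. Its log2 fold change by edgeR was −0.14, −2.11, and 0.82 for 2, 5, and 10% RPS (adjusted p = 0.966, 0.263, and 0.586). Per kilobase of exon, the median level over the 20 libraries was 483 for Retnlb, 219 for Retnla, and 20.3 for Retn, against 36035 for Muc2 and 32597 for Tff3. By this pooled median Retnlb was the highest of the 3 family members and far below the main secretory products of the goblet cell. In the 4 libraries of the TWD alone other than replicate 2 the order of Retnlb and Retnla turned, with medians per kilobase of 218 and 237. Across the 20 libraries Retnlb had a Spearman rho of −0.10 with Retnla and −0.03 with Retn. Without 0% RPS replicate 2 the rho was −0.16 with each.

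In 0% RPS replicate 2, Retnlb was 5.34 higher on the log2 scale than the median of the other 4 libraries of that diet, the 4th largest excess among 12348 genes whose mean reached 10 normalised counts. The 3 genes above it were antibody variable segments, namely Igkv8-24 (5.54), Ighv2-3 (5.50), and Ighv15-2 (5.34), which differ between mice with their plasma cell clones and had means of 16.9 to 59.4 normalised counts. Among the largest deficits of the same library were Fabp6, an ileal bile acid-binding protein (−5.85), S100g, a calcium-binding protein of absorptive cells (−5.23), and Cubn, an endocytic receptor (−4.82). Other genes of the named sets were also far from their diet there, with a log2 excess of 4.38 for Aqp4 and 3.15 for Ang4 and a deficit of −1.98 for Reg3b.

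Goblet cell genes were also higher on balance in that library, by much less than Retnlb. The log2 excess of the 20 members had a median of 0.40 (0.01 over all genes), was above 0 for 15, and ran from −0.73 for Tff3 to 3.15 for Ang4, while their summed level of 921635 normalised counts lay above the 565448 to 681970 of the other 4 libraries at 0% RPS and below the highest library at 10% RPS (1202711). Muc2 had 650053 normalised counts there against 301695 to 452945 in the other 4. Markers of other cells moved as well, with a median log2 excess of 1.07 for 8 macrophage genes, 1.28 for 9 adipocyte genes, 0.67 for 9 smooth muscle genes, and 1.62 for the 3 T and B cell genes in the table. The summed macrophage level of 6884 normalised counts was above the 2525 to 4345 of all other libraries, and that of the T and B cell genes, 11950, above their 1590 to 5406. The 12 colonocyte genes had a summed level of 292353 normalised counts, below the 455216 to 780863 of all other libraries. Car1 made up much of that sum. The median log2 excess of the 12 was only −0.11, with 4 above 0 and a range from −2.01 for Car1 to 4.03. Car1 had 70115 normalised counts there against 239322 to 361131 in the other 4 libraries at 0% RPS. None of the 10 neutrophil genes and 1 of the 9 mast cell genes was in the table.

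Genes that mark position along the gut also differed in that library. The 9 genes of the anterior list, mostly Hoxb genes with the regional factor Osr2, had a median log2 excess of −1.55, and their summed level was 3802 normalised counts against 10300 to 14423 in all other libraries. The 8 posterior Hox genes in the table had a summed level of 8835 normalised counts against 5076 to 6410 elsewhere, and their excess ran from −2.65 to 3.77. Hoxa9 had 2422 normalised counts there against 257 to 524 in the other 4 libraries of its diet. Named after their values were seen, Hoxa13 had a log2 excess of 3.77 and the water channel Aqp8 one of 4.03. Of the 8 posterior Hox genes only 4 were above 0, and the lowest was Hoxd10 at −2.65. Aqp8 belongs to the colonocyte list, where 4 of 12 were above 0. These measures departed in the same 1 library as the Retnlb level, and their part in that level was not tested.

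**Figure D3:**
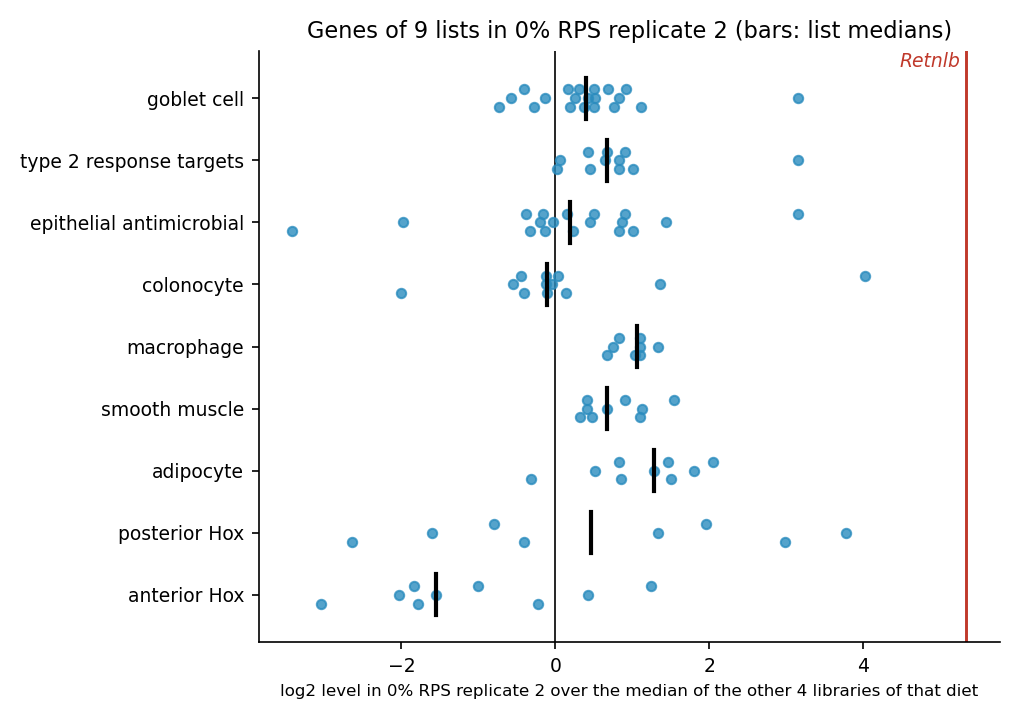
log2 level in 0% RPS replicate 2 over the median of the other 4 libraries of its diet (horizontal axis) for the genes of 9 lists, 1 point per gene, with the list median as a bar and Retnlb as the vertical line at 5.34. Goblet cell genes centre on 0.40 and anterior Hox genes on −1.55, and no gene of these lists reaches the excess of Retnlb.

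The gene whose pattern across libraries was most like that of Retnlb was Aqp4, a water channel of the basolateral membrane of epithelial cells, with a Spearman rho of 0.95 over 20 libraries and 0.94 without replicate 2. Aqp4 had 262, 7908, 621, 371, and 389 normalised counts at 0% RPS and 1560, 664, 302, 765, and 1083 at 2% RPS. At 5% RPS it had 1239, 1335, 1488, 734, and 360 normalised counts and at 10% RPS 768, 520, 1049, 1444, and 823. The libraries that were high or low for Retnlb within a diet were therefore largely those that were high or low for Aqp4, including the 3 high and 2 low libraries at 5% RPS. After subtraction of the diet medians the rho was 0.84. These values describe genes picked for them out of 12347, with no test, and the libraries share their scaling.

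The other genes among the 8 most alike over 20 libraries were Mrs2, a mitochondrial magnesium channel (rho 0.88), Gmfg, an actin-regulating factor (0.85), St6galnac6, a sialyltransferase (0.85), Thop1, an oligopeptidase (0.84), Pla2g5, a secreted phospholipase (0.84), Ppa1, an inorganic pyrophosphatase (0.84), and Clca4a, a secreted protein of the calcium-activated chloride channel regulator family (0.81). Most varied far less than Retnlb, Mrs2 from 1786 to 2322 normalised counts. The lowest were Gdpd2, a phosphodiesterase (−0.89), Cln3, a lysosomal membrane protein (−0.88), Fmo5, a flavin monooxygenase (−0.87), and Acad12, an acyl-CoA dehydrogenase (−0.86). Fmo5, as an example, fell to 1494 normalised counts in 0% RPS replicate 2 from 4694 to 5550 in the other 4. In all, 10 genes had a rho of at least 0.8 and 33 a rho of −0.8 or less, around a median of 0.01 over all genes.

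Leaving out replicate 2 brought the antimicrobial genes Reg3b and Reg3g close to Retnlb. Aqp4, Mrs2, and Gmfg stayed the 3 most alike, and were the 3 genes shared by both sets of 8. They were followed by Reg3b and Reg3g, C-type lectins that act against Gram-negative and Gram-positive bacteria, with rho of 0.86 and 0.85 over 19 libraries against 0.59 and 0.62 over 20. The remaining ones were Dph3 (0.85), needed for diphthamide synthesis, Mal (0.85), a lipid raft protein of apical sorting, and B3gnt3 (0.84), which extends mucin-type glycans. After diet medians were subtracted from the 19 libraries Reg3b and Reg3g had a rho of 0.79 and 0.83. Replicate 2 had the highest Retnlb (6180 normalised counts) and the lowest Reg3b (553) of the 20 libraries. Leaving it out therefore raises the rho between these genes. For the 18 antimicrobial genes of the list the median rho was 0.37 over 20 libraries and 0.47 over 19, and that of Ang4 fell from 0.70 to 0.65.

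**Figure D4:**
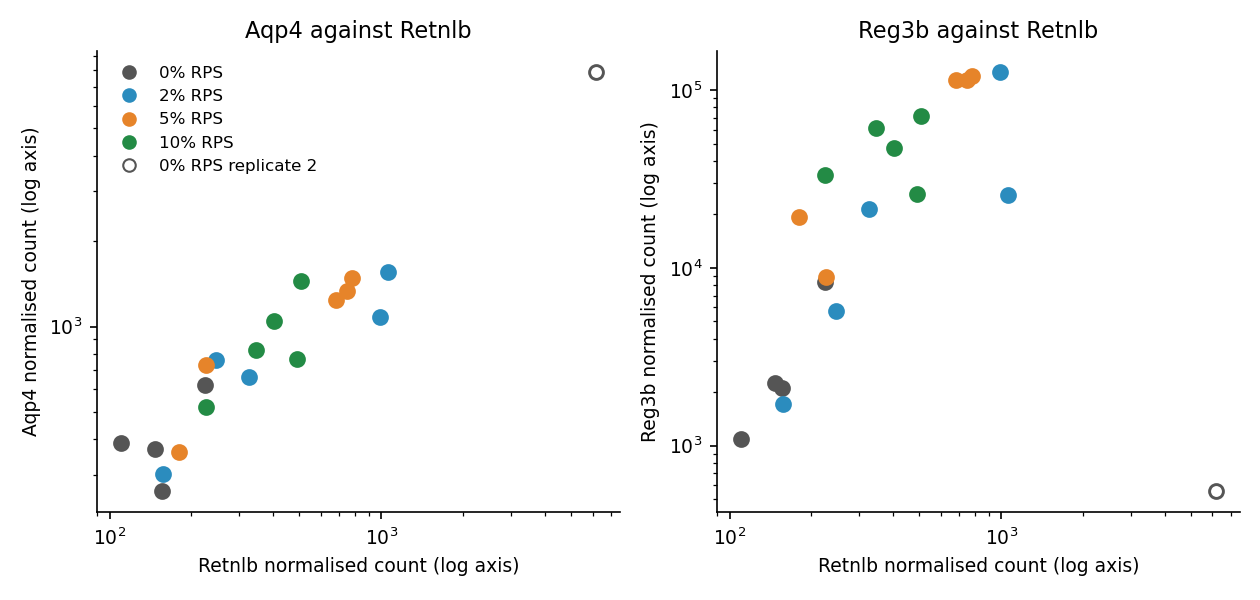
Normalised counts of Aqp4 (left) and Reg3b (right) against Retnlb in the 20 libraries, both axes logarithmic, coloured by diet, with 0% RPS replicate 2 as an open point. Aqp4 was high with Retnlb in that library (7908 normalised counts) while Reg3b was at its lowest (553).

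Of 16 further genes chosen for a known link to Retnlb, to goblet cells, or to the make-up of the libraries, 15 were in the table, and 3 followed Retnlb over 20 libraries past the threshold. These were Ang4, a goblet and Paneth cell ribonuclease with bactericidal activity, with rho 0.70 (permutation p = 0.00067, adjusted p = 0.01 over 15 genes) and Pearson r 0.81 (p = 4e-05, adjusted 0.0006), Reg3g with rho 0.62 (p = 0.00477, adjusted 0.0327), and Reg3b with rho 0.59 (p = 0.00654, adjusted 0.0327). For the Reg3 genes r was only 0.35 (permutation p = 0.13) and 0.23 (permutation p = 0.341), with adjusted values of 0.39 and 0.662. Muc2 reached rho 0.54 (adjusted permutation p = 0.0593) with r 0.48 (adjusted p = 0.122). With 1 library left out, 0 to 4 partners passed by rho, and 0 without 0% RPS replicate 5. The permutations shuffled libraries across all diets, so a diet difference shared by both genes enters the p-values of the partners.

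For other partners, only some of them with a known tie to Retnlb, the relation did not pass. The IL-4 and IL-13 receptor genes Il4ra and Il13ra1 had rho of 0.02 and 0.33, the intestinal transcription factor Cdx2 0.17, the goblet cell products Clca1, Tff3, and Itln1 0.34, 0.22, and −0.16, and Adipoq 0.00, with adjusted permutation p-values from 0.328 to 0.998. Hoxa9 had rho −0.02 but r 0.58 (p = 0.0245, adjusted 0.122), and its r was 0.00 without replicate 2.

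The 2 libraries farthest from the median of Retnlb were 0% RPS replicate 2 and 2% RPS replicate 1. Without both, the relation held for Ang4 (r = 0.74, permutation p = 0.0008, adjusted 0.004), Reg3b (r = 0.91, p = 1e-05, adjusted 7.5e-05), and Reg3g (r = 0.91, p = 1e-05, adjusted 7.5e-05), where 1e-05 is the smallest value that 100000 resamples can give. Mptx1, a pentraxin of the intestinal epithelium, ran opposite to Retnlb, with rho −0.50 over 20 libraries (adjusted permutation p = 0.0774), −0.66 over 19 (0.0133), and −0.62 over 18 (0.024). Within diets the relation to Ang4, Reg3b, and Reg3g remained at rho 0.61, 0.61, and 0.72 once diet medians were subtracted, while that to Muc2 dropped to 0.13 and that to Mptx1 to −0.28. The values within diets were not tested.

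**Figure D5:**
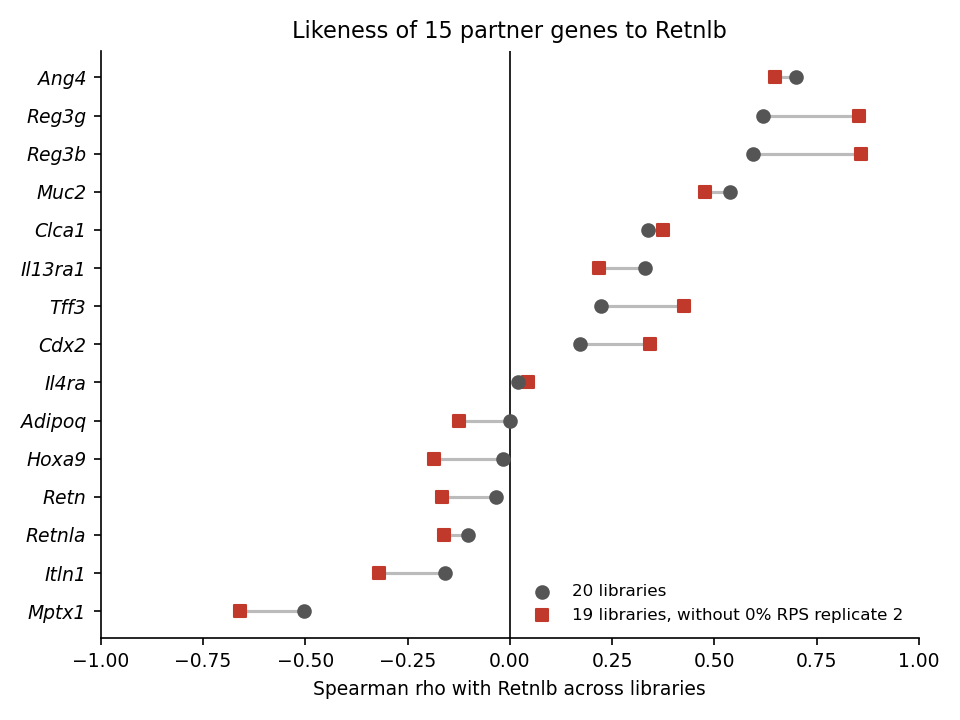
Spearman rho between Retnlb and each of 15 partner genes over 20 libraries (circles) and over 19 without 0% RPS replicate 2 (squares). Reg3b and Reg3g move from 0.59 and 0.62 to 0.86 and 0.85, Mptx1 from −0.50 to −0.66, and Ang4 from 0.70 to 0.65.

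In the fit of all libraries, 6 genes of the lists were called with 5% RPS and 11 with 10% RPS, most of them epithelial antimicrobial genes. Of 18 such genes tested, 5 rose with 5% RPS (Reg3a, Reg3b, Reg3g, Duox2, and Lpo) and 6 with 10% RPS (the same 5 and Sprr2a2), none fell, and the median log2 fold change was 0.38 and 0.45 against −0.01 and 0.00 over all genes tested. Of all genes, 0.334% rose and 0.103% fell with 5% RPS, and 0.525% rose and 0.374% fell with 10% RPS. Reg3b rose from a median of 2114 normalised counts at 0% RPS to 113614 at 5% RPS (log2 fold change 4.71, SE 0.90, adjusted p = 0.000264 by DESeq2) and 47097 at 10% RPS (4.06, SE 0.90, adjusted p = 0.00137). Lpo, a lactoperoxidase, rose by 0.95 (SE 0.16) and 1.21 (SE 0.16) on the log2 scale. edgeR called 1 of these 18 genes with 5% RPS (Lpo) and 2 with 10% RPS (Duox2 and Lpo). It called 0.0566% and 0.226% of all genes as higher. Reg3b did not pass by edgeR, with adjusted p-values of 0.0645 and 0.0557 for 5 and 10% RPS. Without replicate 2 DESeq2 called 6 and 6 of the 18. Sprr2a2 has near-identical copies, so its count is uncertain. Outside this group and the type 2 and tuft cell genes, 3 list members passed, all with 10% RPS. The surface adhesion molecule Ceacam1 was higher by 0.60 on the log2 scale (SE 0.13, adjusted p = 0.000944 by DESeq2) and was called by edgeR too. Hoxa9 and Hoxa5 fell by 1.83 (SE 0.52, adjusted p = 0.0186 by DESeq2) and by 0.83 (SE 0.27, adjusted p = 0.0432). Without replicate 2, where both Hox genes were high, their adjusted p-values were 0.0921 and 0.172, and Ceacam1 kept an adjusted p of 0.0022 with a change of 0.58, just under the fold threshold.

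Goblet cell genes did not pass in the fit of all libraries. Of the 20, 16, 17, and 18 had a fold above 1 with 2, 5, and 10% RPS, with median log2 fold changes of 0.14, 0.31, and 0.38, but 0 were called by DESeq2 or by edgeR at any level. Those with an unadjusted p under 0.05 numbered 2, 8, and 9 by DESeq2 and 2, 7, and 9 by edgeR, all higher with starch. Over all genes tested, 47.6%, 47.4%, and 50% had a fold above 1, and 5.26%, 9.23%, and 10.1% were higher at an unadjusted p under 0.05 by DESeq2 (4.81%, 9.18%, and 9.38% by edgeR). Without replicate 2, Spink4 passed at 5% RPS and Muc2, Agr2, Spdef, and Spink4 at 10% RPS, where Muc2 was higher by 0.70 on the log2 scale, with an SE of 0.17 and an adjusted p of 0.00225 by DESeq2. edgeR called the same 4 genes at 10% RPS on those 19 libraries. All 4 were high in replicate 2, with a log2 excess of 1.11 for Spink4, 0.92 for Muc2, 0.76 for Agr2, and 0.69 for Spdef. The median of the list was 0.40. Leaving that library out lowers the 0% RPS level of these genes and raises their folds. The calls without it are therefore no independent test of starch. In these fits 0.581% and 1.03% of all genes rose at 5 and 10% RPS by DESeq2, and 0.719% at 10% RPS by edgeR. The summed level of the list was 528507 to 894702 normalised counts at 2% RPS, 773795 to 896942 at 5% RPS, and 687504 to 1202711 at 10% RPS.

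Few genes of the type 2 arm were in the table, whose rule for including genes is not given in the sources used here. Of 19 cytokine, receptor, and signalling genes 7 were in the table, and Il4, Il5, Il13, and Il25 were not among them. DESeq2 and edgeR called 0 of the 7 at any starch level, and at an unadjusted p under 0.05 DESeq2 had 0, 3, and 2 and edgeR 0, 3, and 1 for 2, 5, and 10% RPS. Of the 3 at 5% RPS, 2 were higher and 1 was lower by both tools. The shares of all genes at that unadjusted threshold were 8.7%, 16.6%, and 18.8% by DESeq2 and 8.09%, 15.9%, and 18% by edgeR. Among 11 type 2 response targets tested, Fut2, a fucosyltransferase, rose with 5% RPS (log2 fold change 0.81, SE 0.23, adjusted p = 0.0325 by DESeq2) and with 10% RPS (0.81, SE 0.23, adjusted p = 0.0190), together with Sprr2a2 at 10% RPS. Fut2 missed the threshold without replicate 2, with adjusted p-values of 0.0812 and 0.0636. On all 20 libraries edgeR called 0 of the 11 targets at 5 or 10% RPS, with adjusted p-values of 0.138 and 0.0896 for Fut2. Of all genes, DESeq2 called 0.334% higher at 5% RPS and 0.525% higher at 10% RPS. Of 6 tuft cell genes, the source of IL-25 in the epithelium, Alox5 fell with 10% RPS by 0.59 (SE 0.13, adjusted p = 0.00111 by DESeq2). It was called by edgeR too (adjusted p = 0.0307), and 0.374% of all genes fell by DESeq2 at that level. Of 6 transcription factors reported to act on Retnlb, 0 were called by either tool, with 2, 2, and 0 at an unadjusted p under 0.05 by both, 1 higher and 1 lower at 2% RPS and at 5% RPS. Stat6, one of them, which carries the IL-4 and IL-13 signal, had a rho of −0.62 with Retnlb over 20 libraries and −0.66 over 19. It was the lowest of the 6 and is given with no test. Their median rho was −0.17 and −0.25, and the highest, Klf4, had 0.62 and 0.56.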

How the data were processed

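Libraries were made from PC RNA with a stranded mRNA kit and read from one end over 50 bases. The authors trimmed the reads, aligned them to GRCm39, and deposited whole-number read counts per Ensembl gene for 20 libraries, neither normalised nor pooled. The annotation, the use of strand, the handling of reads with several matches, and the rule that left 12701 genes are not given in the sources used here. Other tissues of the study were not used here.

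Libraries were grouped by the treatment in their labels and numbered within a diet in order, so replicate numbers pair nothing. Symbols and coordinates came from GENCODE M39 (12682 identifiers matched). Counts of all genes were fitted together with DESeq2 1.42.0 (Wald test, diet as the only term, Benjamini-Hochberg adjustment over all genes, called where the adjusted p was at most 0.05 and the fold at least 1.5, R 4.3.3). Normalised counts are the deposited counts divided by the DESeq2 size factors. Alternatives were edgeR 4.0.16 (quasi-likelihood test), TMM factors, only the diets compared, no 0% RPS replicate 2, each library left out, other pseudocounts, and exact permutation tests. Likeness was measured on log2(normalised count + 1) over genes with a mean of 10 or more, with 100000 resamples for the partner genes. The labels number the libraries but do not say that each is a separate mouse, so p-values measure only the spread between these samples. Total counts had a median of 26354927 per library. Both tools were tested on simulated counts with the same dispersion for all genes and no outlying library. That test does not cover a gene as variable as Retnlb.

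Retnlb, its partner genes, the 18 lists (198 genes, 120 in the table), and the naming rule were chosen with earlier results of these data known, including the departure of 0% RPS replicate 2. Named were Retnlb and its family, the 8 most and 4 least alike genes over 20 libraries, the 8 most alike over 19, the partners, up to 4 called members of each list, and the 8 largest excesses and 4 largest deficits in replicate 2. Leaving out more libraries beside replicate 2, and edgeR and permutation tests without it, were added after seeing the data.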

Additional observations from a re-analysis of the deposited data

Results flagged for a closer look

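The 31 genes named for Retnlb, its family, its most and least alike genes, and its partners were screened for a library that stood far from the other 4 of its diet by Dixon's criterion at 95%, a gap to the nearest value that fills most of the range of the group. Of 124 gene and diet groups, 18 held such a value. Chance flags about 1 in 20 groups if the values follow a normal distribution. The screen used normalised counts without a log, whose skew can raise that rate, so the number flagged cannot be set against it. The groups are also not independent, since genes were chosen for their likeness to Retnlb.

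In 0% RPS replicate 2 there were 6 of them. Retnlb had 6180 normalised counts against 110 to 224 in the other 4, Aqp4 had 7908 against 262 to 621, Ang4 had 1638 against 120 to 301, Hoxa9 had 2422 against 257 to 524, and Pla2g5 had 194.7 against 50.8 to 66.4. Fmo5 was low there, with 1494 against 4694 to 5550. The part of the other genes in the Retnlb level was not tested.

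Reg3b and Reg3g, the antimicrobial lectins, stood out together in 2 libraries. In 0% RPS replicate 3 they had 8323.5 and 2362 normalised counts, against 553 to 2261 and 128 to 316 in the other 4, and this library had the highest Retnlb level of its diet after replicate 2 (224). In 2% RPS replicate 5 they had 127115 and 14926 normalised counts against at most 25600 and 3871, where Retnlb was also high (988).

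The remaining values were in 4 libraries. In 2% RPS replicate 3, the library with the lowest Retnlb level of its diet (157), Mptx1 had 602 normalised counts, Il4ra 1813, Retnla 171.5, and Retn 262.5, each the highest of its diet. Pla2g5 had 269 normalised counts in 2% RPS replicate 5. In 10% RPS replicate 1 the adipocyte products Retn and Adipoq had 626 and 2003 normalised counts against at most 116 and 481. Dph3 had 1067 normalised counts in 10% RPS replicate 4 against 961 to 985.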

How the results depend on the processing

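No paired analysis was possible because the labels give no replicate numbers that diets share. Retnlb against 0% RPS turned from negative to positive in every alternative without 0% RPS replicate 2, and the cause was not tested. By edgeR without it the log2 fold changes were 1.80, 1.72, and 1.30 for 2, 5, and 10% RPS, 1.60 for any starch, and 0.041 per percent for the trend. By exact permutation with all libraries, the differences in mean log2 were 0.38, 0.44, and 0.23 and those in mean rank 2.6, 2.6, and 3.0; without replicate 2 they were 1.44, 1.51, and 1.29 and 4.05, 4.05, and 4.5. Between starch levels, 5% against 2% RPS was 0.23 without the 3 libraries outside the run of label numbers and 0.061 by mean log2, and 10% against 2% RPS was 0.2 by mean rank. With TMM factors and edgeR on all libraries each sign stayed negative.

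Over the fits that left out libraries, replicate 2 included, the log2 fold change ran from −1.67 to 2.04 for 2% RPS, −1.68 to 1.94 for 5% RPS, −2.09 to 1.52 for 10% RPS, −1.79 to 1.82 for any starch, −0.32 to 0.29 for 5% against 2% RPS, −0.73 to −0.12 for 10% against 2% RPS, −0.63 to −0.22 for 10% against 5% RPS, and −0.17 to 0.042 for the trend. With replicate 2 kept, the signs against 0% RPS stayed negative. For 5 and 10% against 0% RPS the fits of only the diets compared gave no p, since DESeq2 withheld it for an extreme count.

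All genes called numbered 3, 55, and 113 for 2, 5, and 10% RPS. They were 0, 7, and 40 by edgeR, 239 and 578 for 5 and 10% RPS with no fold threshold, and 0 and 19 for 2 and 5% RPS by edgeR without replicate 2. With libraries left out they ran from 1 to 10, 24 to 104, and 62 to 201, with 5, 104, and 201 without replicate 2. Members of the lists called numbered 0, 6, and 11, then 1 and 4 for 5 and 10% RPS by edgeR, 3 for 5% RPS by edgeR without replicate 2, 19 for 10% RPS with no fold threshold, and 0 to 3, 3 to 9, and 6 to 15 with libraries left out.

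Of the 8 genes most alike, 4 stayed by Pearson r and 3 after subtraction of diet medians, and 3 to 8 when a library was left out (3 without replicate 2, 4 without 2% RPS replicate 1). Of the partners, 3 passed with all libraries, 1 by Pearson r, and 0 to 4 when a library was left out, with 0 without 0% RPS replicate 5. Adipoq went to a rho of −0.12 without replicate 2, and Mptx1 passed (−0.66). The excess of Retnlb in replicate 2 was 4.24 against the median of the other 19 libraries. Depth did not limit Retnlb, with at least 106 counts per library; the spread between 5 libraries did.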

Other observations

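Several listed genes that are not described above also ran with or against Retnlb, and are given as values chosen after they were seen, with no test. Cd79a, part of the B cell receptor, had a Spearman rho with Retnlb of 0.74 over 20 libraries and 0.76 without 0% RPS replicate 2, and Jchain, made by plasma cells, 0.56 and 0.49. Among colonocyte genes, the rho of Krt20, a keratin of mature surface cells, was 0.57 and 0.73, and that of Lgals3, a galectin, 0.57 and 0.71. These were the highest of the 12 genes of that list. Its median was 0.33 and 0.41, and its lowest member, Cdhr5, had −0.43 and −0.33. Duox2, which makes hydrogen peroxide at the epithelial surface, had 0.65 and 0.69, Sprr2a3, a small proline-rich protein with near-identical copies and so an uncertain count, 0.71 and 0.67, and the epithelial transcription factor Klf4 0.62 and 0.56. On the other side, the 6 tuft cell genes had a median rho of −0.43 and −0.41, with Trpm5, their taste-signalling channel, at −0.59 and −0.68, and Cubn, among the largest deficits of replicate 2, had −0.79 and −0.75. The median over all genes was 0.01 and −0.01, and the libraries share diet and scaling.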
